A study of Mus musculus with 36 samples.

Results

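Transcripts of 36 genes of sterol and fatty acid synthesis were followed through 36 RNA sequencing libraries of mouse lymphoma cells. The genes were taken by name from a table of 27179 genes: 18 enzymes of the mevalonate and sterol pathway (the sterol arm), 6 genes that control this pathway or carry its product, and 12 genes that make, extend, desaturate or assemble fatty acids (the fatty acid arm). All 36 passed the filter on low counts, which 12321 of the 27179 genes passed.

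The cells were 3 lymphoma lines with the labelled background Em-myc, AH47A, 287 and 621. Em-myc is a Myc transgene under an immunoglobulin enhancer, which drives it in B lineage cells. Each line carried 1 of 6 constructs, the TRP53 mutants G280, I192S, R246Q, R270H or V170M, which the design text calls human proteins, or a negative control. Each of these cultures was sequenced untreated and after 12 hours in 5 µM nutlin-3a, which frees p53 from its inhibitor MDM2, with 25 µM of the caspase inhibitor QVD-OPH. The labels do not say whether untreated cultures also received QVD-OPH, so that effects of nutlin-3a and of QVD-OPH cannot be told apart if they did not. Per the design text the wild-type TRP53 that nutlin-3a activates is present, so the mutants were expressed beside it. A line and treatment is thus represented by 6 libraries, 1 per construct, and a construct and treatment by 3, 1 per line. The 5 mutants share the same 3 control libraries in each treatment. No repeat cultures of a construct within a line are labelled, so within a line the 6 constructs served as the repeats, and p-values for a line concern that line only.

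Cholesterol is built from acetyl-CoA through the mevalonate pathway, which ends in farnesyl diphosphate, and then through squalene and lanosterol. The membrane-bound factors SREBP-1 and SREBP-2, encoded by Srebf1 and Srebf2, are carried by SCAP from the endoplasmic reticulum to the Golgi, where they are cut and released to switch on these genes. INSIG proteins hold SCAP back when sterols are plentiful. SREBP-2 is best known for the sterol genes and SREBP-1 for the fatty acid genes, and dividing cells use both pathways to build membranes.

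The promoter sequences were searched for exact strings of letters linked to this control. Among RefSeq windows of 250 bases before to 50 after a transcript start (GRCm38.p6), 29 of the 36 members had an entry. The sterol regulatory element was searched as TCACNCCAC on both strands, and 1 of the 29 held it, Hmgcs1, with its first base 137 before the start on the plus strand (position -137), against 1.34% of the 9360 tested genes with an entry. The CCAAT box (CCAAT on either strand), the letters that the factor NF-Y binds, stood in 14 of 15 sterol genes, in 4 of 5 control genes and in 4 of 9 fatty acid genes, against 43.8% of tested genes. The GC box (GGGCGG on either strand) stood in 14 of 15, 5 of 5 and 4 of 9, against 68.9%. Over all 32851 windows the shares were 1.24%, 37.4% and 35.7%. None of the searched strings contains another, and a match is a description of the sequence only. Variants of the strings and sites outside the windows were not counted, so a member without a match can still hold such a site. The 250 bases before the start are printed for the member with the sterol element (Hmgcs1), for the sterol gene that had an entry, lacked the element and, of these, had the mean response over the lines farthest from 0 (Hsd17b7, added after its values were seen), and for both most abundant fatty acid genes with an entry (Fasn and Acly), on the strand of the gene. Capitals mark the sterol element and CCAAT boxes. Hmgcs1 lies at chr13:119690101-119690350 (plus strand), Hsd17b7 at chr1:169969206-169969455 (minus), Fasn at chr11:120824548-120824797 (minus) and Acly at chr11:100528001-100528250 (minus).
Hmgcs1: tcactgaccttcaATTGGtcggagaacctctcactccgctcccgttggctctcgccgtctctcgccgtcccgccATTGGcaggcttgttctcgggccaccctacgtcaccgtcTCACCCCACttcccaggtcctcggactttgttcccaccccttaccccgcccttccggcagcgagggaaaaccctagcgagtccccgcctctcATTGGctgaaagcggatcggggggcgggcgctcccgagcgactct
Hsd17b7: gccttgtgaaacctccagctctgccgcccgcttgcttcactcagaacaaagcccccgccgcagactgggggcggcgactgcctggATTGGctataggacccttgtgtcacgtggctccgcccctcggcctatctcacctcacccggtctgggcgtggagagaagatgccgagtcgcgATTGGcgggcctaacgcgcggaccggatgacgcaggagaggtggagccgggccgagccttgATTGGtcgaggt
Fasn: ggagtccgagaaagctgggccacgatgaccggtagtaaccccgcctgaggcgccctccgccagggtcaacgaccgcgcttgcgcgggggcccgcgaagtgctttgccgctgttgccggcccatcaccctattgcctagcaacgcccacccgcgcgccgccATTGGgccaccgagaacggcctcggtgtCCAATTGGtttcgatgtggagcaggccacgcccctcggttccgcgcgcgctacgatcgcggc
Acly: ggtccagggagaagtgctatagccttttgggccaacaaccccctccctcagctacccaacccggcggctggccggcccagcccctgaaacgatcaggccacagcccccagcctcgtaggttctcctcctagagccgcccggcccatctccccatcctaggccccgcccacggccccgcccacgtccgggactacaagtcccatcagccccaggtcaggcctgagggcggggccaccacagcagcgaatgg
The printed bases hold 3 CCAAT boxes each in Hmgcs1, Hsd17b7 and Fasn, and 0 in Acly. The Fasn count includes the stretch CCAATTGG, where a match on each strand overlaps the other.

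The libraries held 5404113 to 10718302 counts, 6584334 to 10718302 untreated and 5404113 to 9689091 after nutlin. Nutlin raised the p53 targets Cdkn1a by 8.27, 6.58 and 5.34 on the log2 scale in AH47A, 287 and 621, and Mdm2 by 1.64, 2.66 and 1.64. The mutants exceeded the control in counts on mouse Trp53, where endogenous and construct transcripts can both fall, by a mean of 2.32 untreated and 1.44 under nutlin. Of the B cell markers, Cd79a and Cd79b, parts of the B cell receptor, were at 115 to 429.9 and 96 to 284 CPM (library-size scaled counts) over the 36 libraries. Of 6 B cell markers, 6 fell after nutlin in AH47A, 4 fell in 287, and 3 fell and 2 rose in 621. The Cd79a response was -0.47, -0.96 and -0.85 on the log2 scale in the 3 lines and that of Cd79b -0.24, -1.11 and -0.58. The myeloid marker Itgam rose in each line (2.05, 1.43 and 2.24). The part of these marker changes in the nutlin responses of the members was not tested. The sums of 6 myeloid markers were 5.61 to 57.5 CPM, of 6 T cell markers 0 to 21.8 CPM, of 4 erythroid markers 0 to 1.05 CPM and of 6 fibroblast and adipose markers 0 to 3.04 CPM. Myeloid sums in AH47A were 5.61 to 7.79 CPM untreated and 10.2 to 28.7 CPM after nutlin. In 287 they were 17.2 to 25 and 37.4 to 57.5 CPM. T cell sums in 287 were 4.85 to 6.59 and 14.7 to 21.8 CPM. Fibroblast and adipose sums in 287 went down, from 1.23 to 3.04 CPM to 0.23 to 0.846 CPM. The other sums of these types overlapped between treatments within each line. The part of these shifts in the member responses was not tested. In bulk libraries, fewer cells of a type and less RNA per cell cannot be told apart.

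Before treatment the members spanned a wide range of abundance, and most stood highest in AH47A. Per length, the most abundant was Scd2, a stearoyl-CoA desaturase, with a mean level of 332 RPKM (CPM divided by gene length in kilobases) over the 36 libraries. Next came the ATP citrate lyase gene Acly (129 RPKM), Scd1 (97.5), Srebf2 (81), the fatty acid synthase gene Fasn (75.1) and Hmgcs1 (57.9). The sterol reductase gene Tm7sf2 had the lowest mean over the 36 libraries, at 2.49 RPKM, beside Lpin1 at 3.4 RPKM. In the untreated libraries alone Lpin1 was lower, with means of 0.895, 0.311 and 0.54 RPKM in AH47A, 287 and 621. Untreated Tm7sf2 stood at 3.33, 3.24 and 2.91 RPKM. Scd1 and Scd2 are close paralogs, and the handling of reads that fit both is not stated, so their counts are uncertain.

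In untreated cells 287 stood below AH47A in 29 of 36 members and above it in 3, where all genes gave 58.8% called (29.2% lower). Line 621 stood below AH47A in 24 members and above it in 2 (58.6% of all genes, 29.6% lower), and above 287 in 17 and below it in 6 (60.4%, 29.7% higher). A call here and below is an adjusted p under 0.05 in edgeR's quasi-likelihood test, and ± gives a standard error on the log2 scale. The widest gap of a sterol gene was that of Pmvk, the phosphomevalonate kinase, at -2.44 ± 0.15, adjusted p = 3.28e-13 in 287 against AH47A. Fads2, a fatty acid desaturase, was lower than in AH47A in 287 (-1.81 ± 0.20, adjusted p = 9.27e-08) and further in 621 (-2.82 ± 0.22, adjusted p = 1.58e-10). Scd1 was low in 287 alone of the 3 lines, at -1.81 ± 0.12, adjusted p = 2.52e-12 against AH47A, while 621 and AH47A differed by -0.04 ± 0.11, adjusted p = 0.791. The exceptions that stood above AH47A in both other lines were Acss1, the mitochondrial acetyl-CoA synthetase (1.08 ± 0.13, adjusted p = 7.3e-08 in 287 and 1.24 ± 0.13, adjusted p = 5.3e-09 in 621), and Ebp, a sterol isomerase (0.38 ± 0.07, adjusted p = 4.18e-05 and 0.33 ± 0.07, adjusted p = 0.000205). Since each line is a single line, these differences describe the 3 lines.

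**Figure D1:**
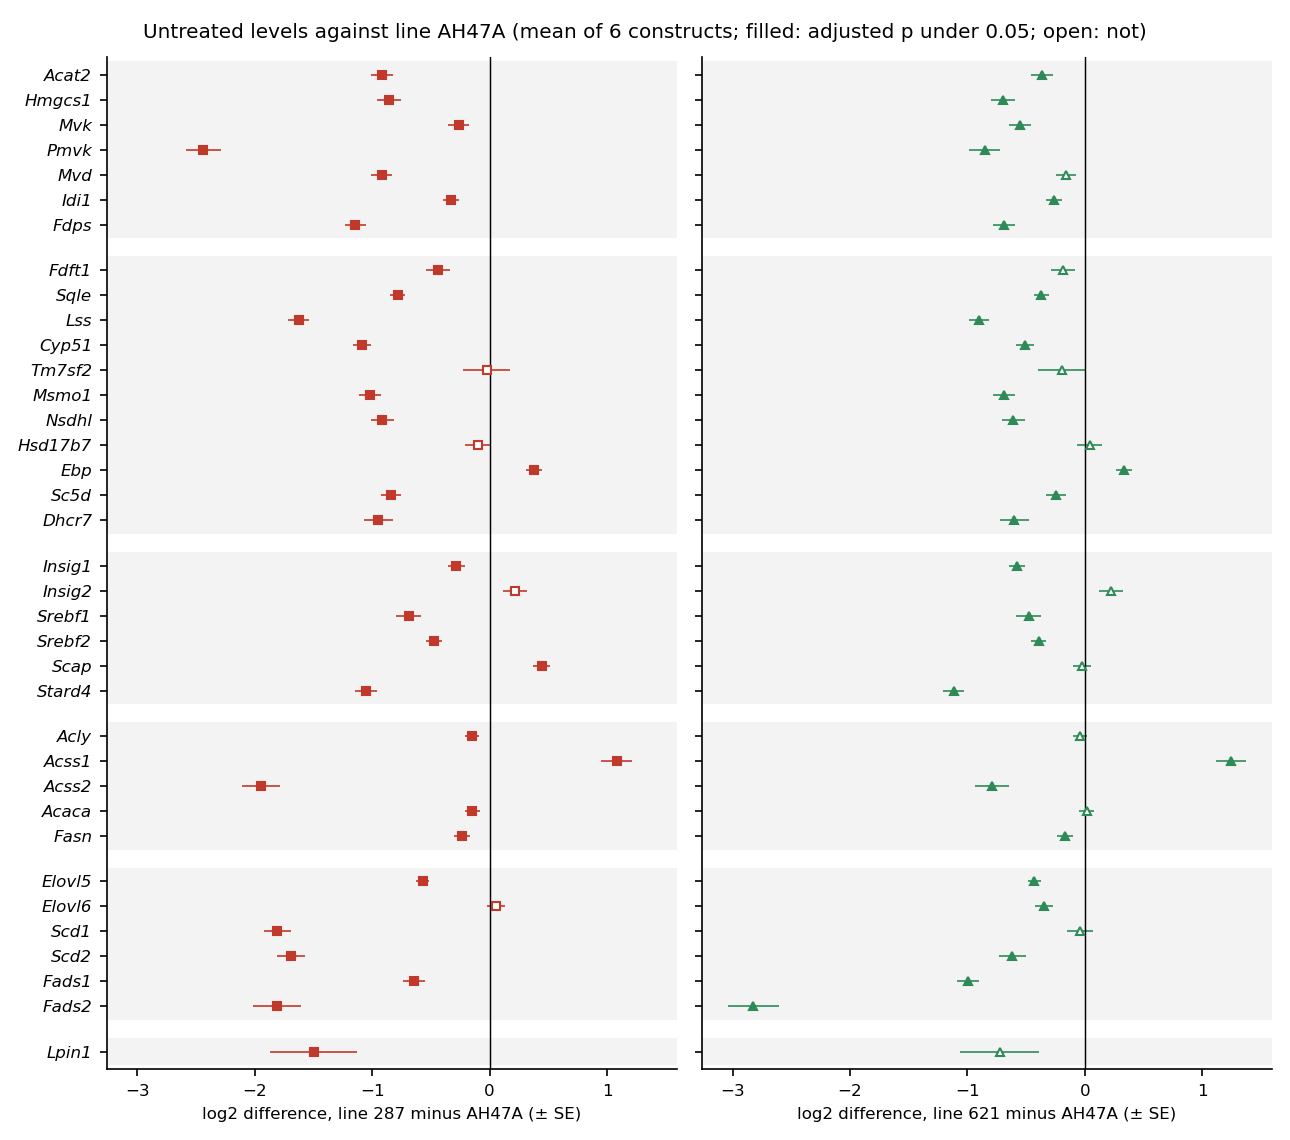
Untreated log2 difference of each member in line 287 (left) and line 621 (right) against AH47A, mean of 6 constructs with SE, members in rows by role. Most points lie left of 0; Acss1 and Ebp lie right of it in both panels, and Pmvk and Fads2 reach -2.44 and -2.82.

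After nutlin most of the synthesis genes were lower in each of the 3 lines. In AH47A 21 of 36 members were lower and 4 higher, in 287 27 were lower and 5 higher, and in 621 29 were lower and 2 higher. Of all genes tested, 22.2%, 35.7% and 28.6% were lower in these lines, and 43.6%, 71.9% and 55% were called at all. Of the 18 sterol genes 12, 16 and 17 fell in AH47A, 287 and 621, and of the 12 fatty acid genes 7, 8 and 8. In all, 18 of 36 members fell in each of the 3 lines, 10 of them in the sterol arm and 6 in the fatty acid arm, against 10.6% of all genes. The 2 members that rose in all 3 lines were Acss2 and Lpin1 (12.3% of all genes did). All 6 nutlin libraries lay below all 6 untreated ones of the line for 9 members in AH47A, 25 in 287 and 20 in 621, against 11.4%, 26.4% and 15% of all genes. The member count of AH47A fell most when 1 construct was left out. Without its control libraries 17 members were called in place of 25. Lost were the calls of Hmgcs1 (adjusted p = 0.0682), Cyp51 (0.0503), Nsdhl (0.0578), Dhcr7 (0.245), Stard4 (0.0674), Acaca (0.151), Fads1 (0.051) and Scd1 (0.165). The AH47A calls of Dhcr7 and Scd1 were lost under more settings than those of the other members. Dhcr7 was also lost with RLE scaling, with no filter on low counts, in a fit of the line's libraries without the construct block, and without the R246Q (adjusted p = 0.127), R270H (0.0517) or V170M (0.0722) libraries. Scd1 was also lost with no filter, in the line's fit without the block, and without the I192S (adjusted p = 0.0781), R246Q (0.0661) or V170M (0.0666) libraries. Without R246Q, Acaca (adjusted p = 0.143), Nsdhl (0.0647) and Stard4 (0.055) were lost as well. Leaving out 1 construct at a time left 16 of 25 calls standing throughout in AH47A, 31 of 32 in 287 and 27 of 31 in 621. Counts over all genes in these fits are not given here, so the losses are not read as a trait of the members.

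**Figure D2:**
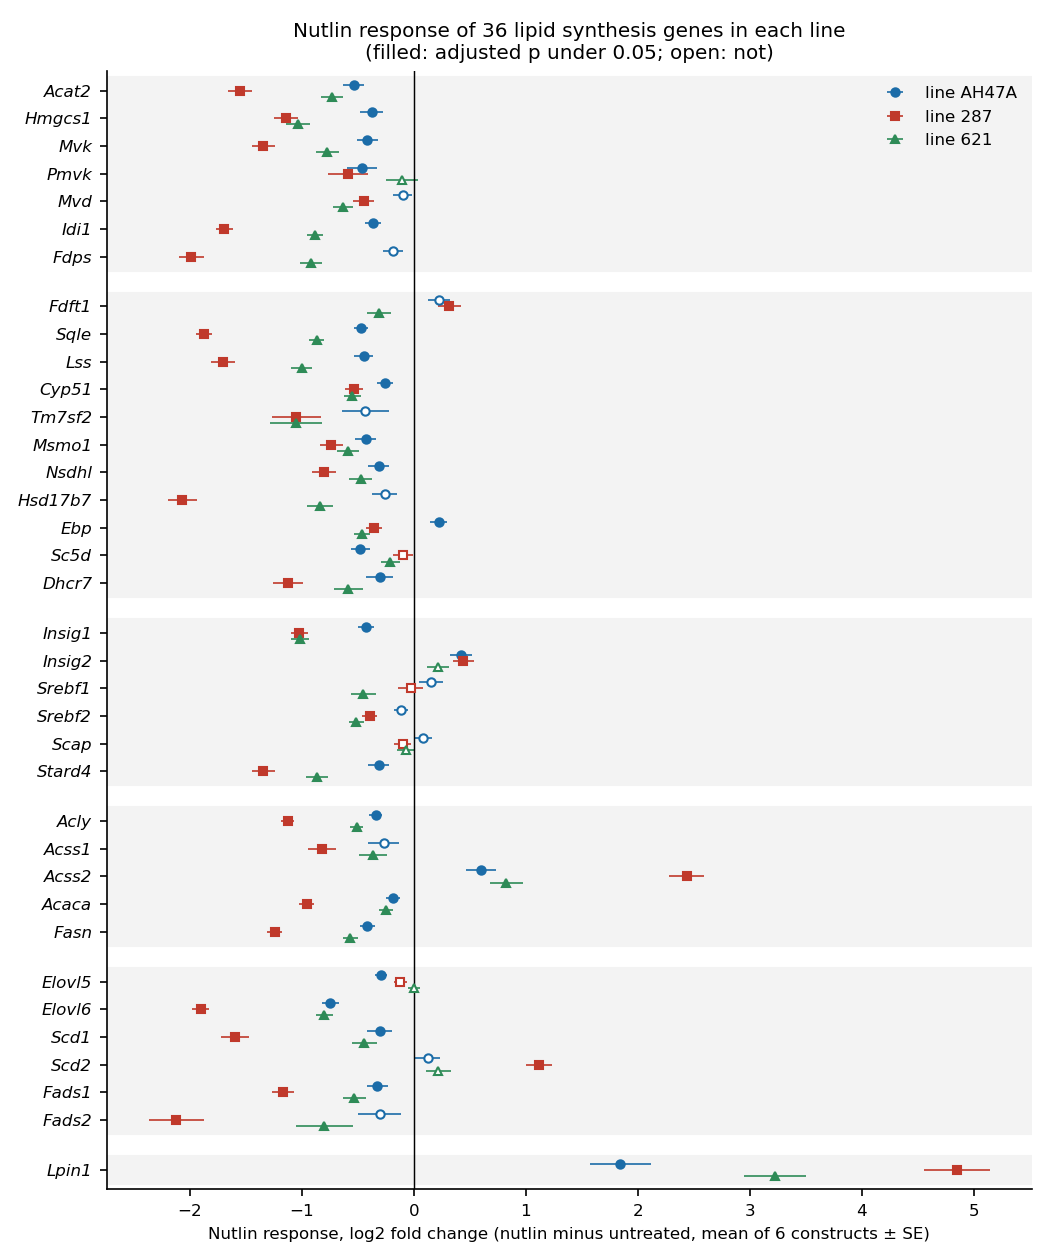
Nutlin response (log2 fold change with SE, nutlin minus untreated, mean of 6 constructs) of the 36 members in rows by role, for AH47A (circles), 287 (squares) and 621 (triangles). Most points lie left of 0 and the 287 squares farthest left, while Acss2 and Lpin1 lie right of 0 in every line.

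The mevalonate genes, which lead from acetyl-CoA to farnesyl diphosphate, fell in 5 of 7 cases in AH47A, in 7 of 7 in 287 and in 6 of 7 in 621, and none rose. Hmgcs1 encodes the cytosolic HMG-CoA synthase. Hmgcs1 in AH47A ran from 262 to 363 CPM (median 342) before nutlin and from 169.6 to 322 CPM (median 259.7) after it. In 287, Hmgcs1 ran from 156 to 203 CPM (median 179.8) untreated and from 57.4 to 98.3 CPM (median 80.3) after nutlin. For 621, Hmgcs1 values were 176 to 232 CPM (median 197) untreated and 59.9 to 130 CPM (median 105) after nutlin. For Hmgcs1, all 6 nutlin libraries lay below all 6 untreated ones in 287 and 621, and the groups overlapped in AH47A (lower after nutlin in 6 of 6 constructs). Its response was -0.38 ± 0.10 in AH47A (adjusted p = 0.00393), -1.14 ± 0.11 in 287 (adjusted p = 5.44e-10) and -1.04 ± 0.11 in 621 (adjusted p = 1.22e-08). Idi1 encodes the isomerase of the isoprene units. AH47A libraries held 70.4 to 77 CPM (median 72.2) of Idi1 untreated and 44.4 to 63.3 CPM (median 58.6) under nutlin. In line 287, Idi1 held 52 to 65.7 CPM (median 57.5) before and 13.3 to 23 CPM (median 17.7) after nutlin. In line 621, Idi1 held 54.6 to 64.7 CPM (median 61.3) untreated and 21.5 to 41.1 CPM (median 34.9) after nutlin. For Idi1, all 6 nutlin libraries lay below all 6 untreated ones in AH47A, 287 and 621. The Idi1 response was -0.37 ± 0.07 in AH47A (adjusted p = 0.000116), -1.69 ± 0.08 in 287 (adjusted p = 3.05e-17) and -0.88 ± 0.07 in 621 (adjusted p = 9.81e-11).

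Fdps, which makes farnesyl diphosphate, had a wide gap between lines. Untreated, Fdps stood at 64 to 96 CPM (median 79.8) in AH47A, against 47.1 to 85.5 CPM (median 71.8) after nutlin. The 287 Fdps values were 29.4 to 40.6 CPM (median 35.7) untreated and 6.53 to 11.7 CPM (median 9.26) after nutlin. The 621 Fdps values were 43.7 to 52.1 CPM (median 50.7) and 19.4 to 29.8 CPM (median 26.6). For Fdps, all 6 nutlin libraries lay below all 6 untreated ones in 287 and 621, and the groups overlapped in AH47A (lower after nutlin in 5 of 6 constructs). The fitted Fdps change was -0.19 ± 0.09 in AH47A (adjusted p = 0.0867), -1.99 ± 0.11 in 287 (adjusted p = 1.85e-15) and -0.92 ± 0.10 in 621 (adjusted p = 8.36e-09), and the values of 287 and 621 passed the test. Acat2 is the acetoacetyl-CoA thiolase at the head of the pathway. Acat2 in AH47A ran from 63.1 to 78.2 CPM (median 70.4) before nutlin and from 30.7 to 61.6 CPM (median 52.3) after it. In 287, Acat2 ran from 33.5 to 43.5 CPM (median 36.3) untreated and from 10.2 to 17.9 CPM (median 12.3) after nutlin. For 621, Acat2 values were 49.7 to 60.3 CPM (median 55.8) untreated and 25.2 to 46.1 CPM (median 33.1) after nutlin. For Acat2, all 6 nutlin libraries lay below all 6 untreated ones in AH47A, 287 and 621. The Acat2 response was -0.54 ± 0.10 in AH47A (adjusted p = 4.6e-05), -1.55 ± 0.11 in 287 (adjusted p = 3.77e-13) and -0.73 ± 0.10 in 621 (adjusted p = 5.33e-07). The other members of this role, Mvk, Pmvk and Mvd, had responses between -1.35 (Mvk in 287) and -0.10, and 7 of these 9 values passed the test. Mvd in AH47A (-0.10 ± 0.08, adjusted p = 0.368) and Pmvk in 621 (-0.10 ± 0.14, adjusted p = 0.562) did not.

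Of the 11 genes between squalene and cholesterol, 7 fell in AH47A, 9 in 287 and 11 in 621. Sqle, squalene epoxidase, catalyses the first oxygen-dependent step. AH47A libraries held 181 to 216 CPM (median 189) of Sqle untreated and 87.4 to 163 CPM (median 153) under nutlin. In line 287, Sqle held 98 to 124 CPM (median 113) before and 23.5 to 39.8 CPM (median 31.2) after nutlin. In line 621, Sqle held 145 to 155 CPM (median 152) untreated and 57.3 to 104 CPM (median 87.1) after nutlin. For Sqle, all 6 nutlin libraries lay below all 6 untreated ones in AH47A, 287 and 621. Its log2 change was -0.47 ± 0.06 in AH47A (adjusted p = 9.88e-07), -1.87 ± 0.07 in 287 (adjusted p = 7.35e-19) and -0.87 ± 0.07 in 621 (adjusted p = 1.78e-11). Cyp51 removes a methyl group from lanosterol. Untreated, Cyp51 stood at 247 to 304 CPM (median 275) in AH47A, against 191 to 286 CPM (median 232) after nutlin. The 287 Cyp51 values were 113 to 149 CPM (median 127) untreated and 81.8 to 95.1 CPM (median 89.3) after nutlin. The 621 Cyp51 values were 172 to 209.8 CPM (median 193) and 111 to 151 CPM (median 134). For Cyp51, all 6 nutlin libraries lay below all 6 untreated ones in 287 and 621, and the groups overlapped in AH47A (lower after nutlin in 5 of 6 constructs). The Cyp51 response was -0.26 ± 0.07 in AH47A (adjusted p = 0.00625), -0.53 ± 0.08 in 287 (adjusted p = 6.77e-07) and -0.55 ± 0.08 in 621 (adjusted p = 7.95e-07). Msmo1 is the methylsterol monooxygenase. Msmo1 in AH47A ran from 85.8 to 123 CPM (median 104) before nutlin and from 47.2 to 96.1 CPM (median 80.7) after it. In 287, Msmo1 ran from 44.1 to 58.2 CPM (median 50.2) untreated and from 23.5 to 35.6 CPM (median 30.4) after nutlin. For 621, Msmo1 values were 54.6 to 72.1 CPM (median 62.7) untreated and 27.7 to 54.8 CPM (median 44.6) after nutlin. For Msmo1, all 6 nutlin libraries lay below all 6 untreated ones in 287, and the groups overlapped in AH47A (lower after nutlin in 6 of 6 constructs) and 621 (lower after nutlin in 5 of 6 constructs). The Msmo1 response was -0.43 ± 0.09 in AH47A (adjusted p = 0.000532), -0.74 ± 0.10 in 287 (adjusted p = 2.58e-07) and -0.59 ± 0.10 in 621 (adjusted p = 1.42e-05).

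Hsd17b7, the keto reductase of the demethylation steps, whose promoter is printed above, went the farthest down of the sterol genes in 287. AH47A libraries held 27.8 to 32.8 CPM (median 29.9) of Hsd17b7 untreated and 17.1 to 28.8 CPM (median 27.5) under nutlin. In line 287, Hsd17b7 held 25.8 to 32.5 CPM (median 26.9) before and 4.72 to 9.69 CPM (median 6.74) after nutlin. In line 621, Hsd17b7 held 27.7 to 35.6 CPM (median 30.8) untreated and 8.88 to 28.3 CPM (median 17.3) after nutlin. For Hsd17b7, all 6 nutlin libraries lay below all 6 untreated ones in 287, and the groups overlapped in AH47A (lower after nutlin in 5 of 6 constructs) and 621 (lower after nutlin in 6 of 6 constructs). Its response was -0.26 ± 0.11 in AH47A (adjusted p = 0.059), -2.07 ± 0.13 in 287 (adjusted p = 2.01e-14) and -0.84 ± 0.12 in 621 (adjusted p = 6.67e-07). Dhcr7 carries out the last reduction to cholesterol. Untreated, Dhcr7 stood at 91.9 to 132 CPM (median 109.9) in AH47A, against 65.3 to 108 CPM (median 92.7) after nutlin. The 287 Dhcr7 values were 46.9 to 68.1 CPM (median 58.2) untreated and 18.4 to 32.7 CPM (median 28) after nutlin. The 621 Dhcr7 values were 64.3 to 83.3 CPM (median 73.2) and 32.2 to 72.8 CPM (median 46.3). For Dhcr7, all 6 nutlin libraries lay below all 6 untreated ones in 287, and the groups overlapped in AH47A (lower after nutlin in 6 of 6 constructs) and 621 (lower after nutlin in 6 of 6 constructs). The Dhcr7 change was -0.31 ± 0.12 in AH47A (adjusted p = 0.0442), -1.12 ± 0.14 in 287 (adjusted p = 4.95e-08) and -0.59 ± 0.13 in 621 (adjusted p = 0.000422). Lss, the lanosterol synthase, and Nsdhl, a sterol dehydrogenase, fell in every line, between -1.70 and -0.31. Tm7sf2 was at -0.43 ± 0.21, adjusted p = 0.0953 in AH47A and fell by more in the other two lines (-1.05 ± 0.22, adjusted p = 0.000109 in 287 and -1.05 ± 0.23, adjusted p = 0.000377 in 621). The desaturase gene Sc5d fell in AH47A (-0.48 ± 0.08, adjusted p = 3.75e-05) and 621 (-0.21 ± 0.08, adjusted p = 0.0363) and stood at -0.10 ± 0.09, adjusted p = 0.33 in 287. Its groups in 621 overlapped (lower after nutlin in 4 of 6 constructs). The call of Sc5d in 621 was lost without the control (adjusted p = 0.134), I192S (0.146), R270H (0.0893) or V170M (0.0775) libraries. It was also lost with RLE scaling, with DESeq2 and in both fits of the line's libraries alone.

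Fdft1 and Ebp were called in opposite directions in different lines, as 7.3% of all genes were. Fdft1, squalene synthase, takes farnesyl diphosphate into the sterol branch. Fdft1 in AH47A ran from 24.2 to 35.6 CPM (median 32) before nutlin and from 32.4 to 44.5 CPM (median 35.1) after it. In 287, Fdft1 ran from 19.5 to 25.9 CPM (median 23.3) untreated and from 22.2 to 35.5 CPM (median 29) after nutlin. For 621, Fdft1 values were 24 to 31.7 CPM (median 26.9) untreated and 19.6 to 24.7 CPM (median 22.3) after nutlin. For Fdft1, the groups overlapped in AH47A (lower after nutlin in 1 of 6 constructs), 287 (lower after nutlin in 1 of 6 constructs) and 621 (lower after nutlin in 6 of 6 constructs). The Fdft1 response was 0.22 ± 0.10 in AH47A (adjusted p = 0.0736), 0.32 ± 0.10 in 287 (adjusted p = 0.00745) and -0.31 ± 0.11 in 621 (adjusted p = 0.0131). Without the R270H libraries its calls ended in 287 (adjusted p = 0.0529) and in 621 (0.068), and without I192S in 621 (0.054). Ebp isomerises a late sterol intermediate. AH47A libraries held 22.2 to 28.6 CPM (median 27.3) of Ebp untreated and 24.4 to 33.1 CPM (median 31.4) under nutlin. In line 287, Ebp held 30.5 to 37.5 CPM (median 34.2) before and 23.7 to 30 CPM (median 26.3) after nutlin. In line 621, Ebp held 30.7 to 37.8 CPM (median 32.2) untreated and 20.5 to 29.4 CPM (median 23.4) after nutlin. For Ebp, all 6 nutlin libraries lay below all 6 untreated ones in 287 and 621, and the groups overlapped in AH47A (lower after nutlin in 1 of 6 constructs). The Ebp response was 0.22 ± 0.07 in AH47A (adjusted p = 0.0142), -0.36 ± 0.07 in 287 (adjusted p = 5.13e-05) and -0.46 ± 0.07 in 621 (adjusted p = 4.09e-06), and the rise in AH47A was not called without R246Q (adjusted p = 0.0549) or R270H (0.0803).

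The 6 control genes moved apart from one another: 2 fell in AH47A, 3 in 287 and 4 in 621, and Insig2 rose in AH47A and 287. Insig1 is a sterol sensor whose gene is itself a target of SREBP. Untreated, Insig1 stood at 117 to 143 CPM (median 132) in AH47A, against 67 to 108 CPM (median 104) after nutlin. The 287 Insig1 values were 87.5 to 123 CPM (median 109) untreated and 44.2 to 60.1 CPM (median 53.9) after nutlin. The 621 Insig1 values were 80.7 to 93.1 CPM (median 88.6) and 30.5 to 50.7 CPM (median 46.3). For Insig1, all 6 nutlin libraries lay below all 6 untreated ones in AH47A, 287 and 621. The Insig1 response was -0.43 ± 0.07 in AH47A (adjusted p = 2.05e-05), -1.02 ± 0.07 in 287 (adjusted p = 5.62e-13) and -1.02 ± 0.08 in 621 (adjusted p = 1.25e-11). Insig2 encodes the second INSIG protein. Insig2 in AH47A ran from 8.33 to 10.6 CPM (median 9.84) before nutlin and from 10.2 to 16.9 CPM (median 12.8) after it. In 287, Insig2 ran from 10.2 to 12.9 CPM (median 11) untreated and from 14 to 16.3 CPM (median 15.4) after nutlin. For 621, Insig2 values were 10.4 to 12.8 CPM (median 11.2) untreated and 11.7 to 14.8 CPM (median 13.3) after nutlin. For Insig2, all 6 nutlin libraries lay above all 6 untreated ones in 287, and the groups overlapped in AH47A (lower after nutlin in 0 of 6 constructs) and 621 (lower after nutlin in 1 of 6 constructs). The Insig2 response was 0.42 ± 0.10 in AH47A (adjusted p = 0.00104), 0.44 ± 0.10 in 287 (adjusted p = 0.000161) and 0.22 ± 0.10 in 621 (adjusted p = 0.063), higher where it was called and thus opposite to Insig1.

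Srebf2 encodes SREBP-2. AH47A libraries held 454 to 543 CPM (median 496) of Srebf2 untreated and 405 to 532 CPM (median 446) under nutlin. In line 287, Srebf2 held 333 to 395 CPM (median 353) before and 255 to 299 CPM (median 268) after nutlin. In line 621, Srebf2 held 348 to 409 CPM (median 375) untreated and 227 to 301 CPM (median 263) after nutlin. For Srebf2, all 6 nutlin libraries lay below all 6 untreated ones in 287 and 621, and the groups overlapped in AH47A (lower after nutlin in 6 of 6 constructs). Its log2 response was -0.11 ± 0.07 in AH47A (adjusted p = 0.17), -0.39 ± 0.07 in 287 (adjusted p = 6.63e-06) and -0.52 ± 0.07 in 621 (adjusted p = 2.52e-07). Srebf1 encodes SREBP-1, whose isoforms these gene counts do not separate. Untreated, Srebf1 stood at 111 to 203 CPM (median 119.8) in AH47A, against 117 to 220.2 CPM (median 139.9) after nutlin. The 287 Srebf1 values were 73.2 to 88.5 CPM (median 81.5) untreated and 73.6 to 85.7 CPM (median 82.2) after nutlin. The 621 Srebf1 values were 91.3 to 98.5 CPM (median 93.8) and 54.1 to 82.9 CPM (median 69.8). For Srebf1, all 6 nutlin libraries lay below all 6 untreated ones in 621, and the groups overlapped in AH47A (lower after nutlin in 0 of 6 constructs) and 287 (lower after nutlin in 3 of 6 constructs). The Srebf1 response was 0.15 ± 0.11 in AH47A (adjusted p = 0.254), -0.03 ± 0.11 in 287 (adjusted p = 0.832) and -0.45 ± 0.11 in 621 (adjusted p = 0.00126). Scap, the escort of both factors, was called in no line. Scap in AH47A ran from 129 to 145 CPM (median 143) before nutlin and from 136 to 157 CPM (median 150.4) after it. In 287, Scap ran from 183 to 203 CPM (median 189.6) untreated and from 152 to 223 CPM (median 170) after nutlin. For 621, Scap values were 133 to 144 CPM (median 138) untreated and 97.8 to 167 CPM (median 132) after nutlin. For Scap, the groups overlapped in AH47A (lower after nutlin in 0 of 6 constructs), 287 (lower after nutlin in 4 of 6 constructs) and 621 (lower after nutlin in 3 of 6 constructs). The Scap response was 0.08 ± 0.08 in AH47A (adjusted p = 0.394), -0.10 ± 0.07 in 287 (adjusted p = 0.229) and -0.07 ± 0.08 in 621 (adjusted p = 0.454). Stard4, a carrier of cholesterol between membranes, fell in all 3 lines (-0.32 ± 0.09, adjusted p = 0.0063 in AH47A, -1.34 ± 0.10, adjusted p = 2.53e-12 in 287 and -0.86 ± 0.10, adjusted p = 4.76e-08 in 621).

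**Figure D3:**
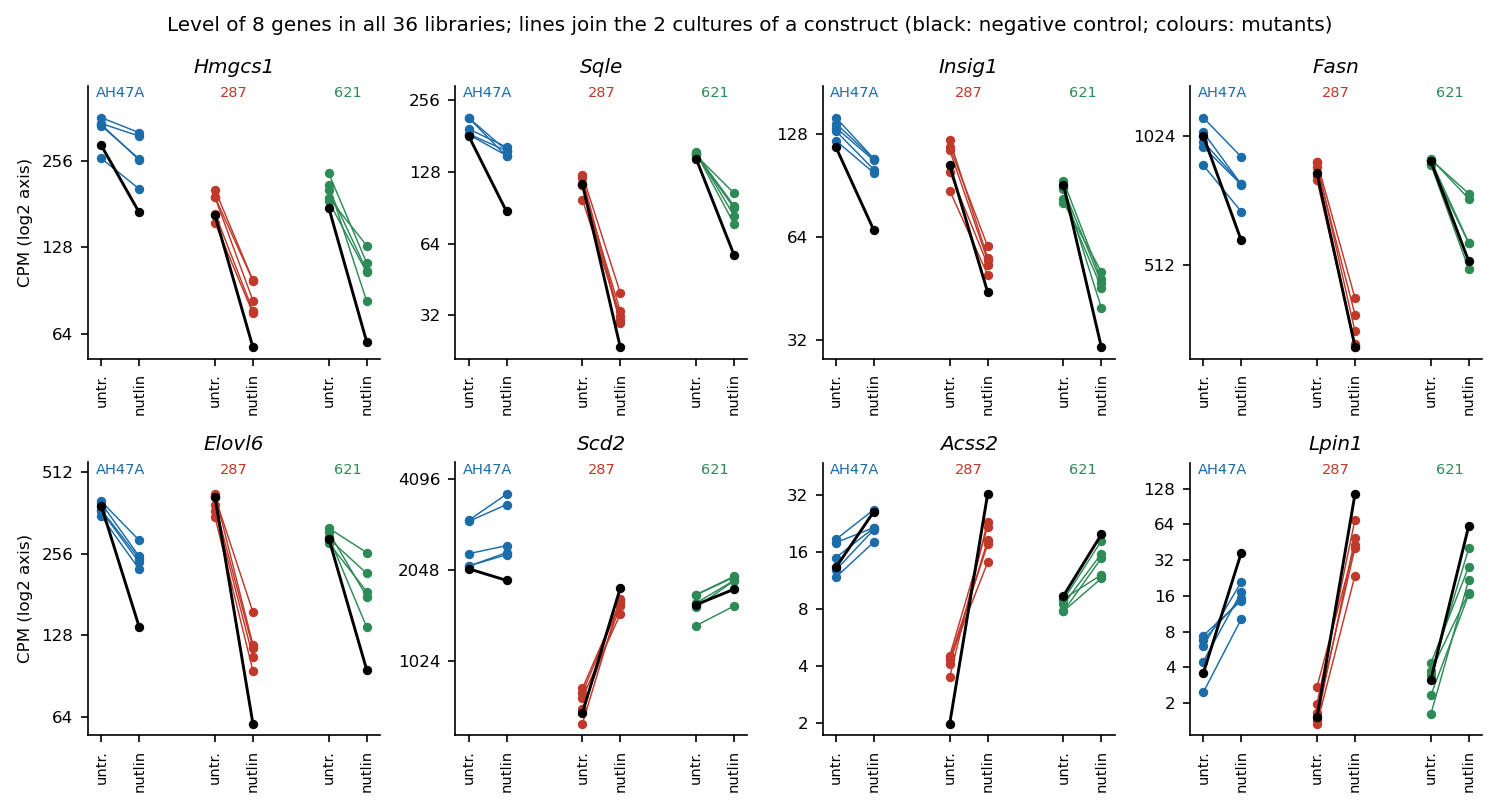
Level (CPM, log2 axis) of 8 members in all 36 libraries, by line, with a line joining the untreated and nutlin library of a construct (black for the negative control). Hmgcs1, Sqle, Insig1, Fasn and Elovl6 slope down, Acss2 and Lpin1 slope up, and Scd2 rises clearly in 287 alone of the 3 lines.

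Fatty acid synthesis starts from cytosolic acetyl-CoA. Of its 5 genes, 3 fell in AH47A and 4 each in 287 and 621, and Acss2 rose in each line. Acly makes acetyl-CoA from citrate. AH47A libraries held 697 to 745 CPM (median 713) of Acly untreated and 427 to 622 CPM (median 596) under nutlin. In line 287, Acly held 611 to 688 CPM (median 649) before and 249 to 335 CPM (median 292) after nutlin. In line 621, Acly held 647 to 747 CPM (median 705) untreated and 398 to 631 CPM (median 479) after nutlin. For Acly, all 6 nutlin libraries lay below all 6 untreated ones in AH47A, 287 and 621. The Acly response was -0.34 ± 0.06 in AH47A (adjusted p = 3.17e-05), -1.13 ± 0.06 in 287 (adjusted p = 7.75e-16) and -0.51 ± 0.06 in 621 (adjusted p = 3.78e-08). Acaca is the carboxylase that makes malonyl-CoA. Untreated, Acaca stood at 115 to 137 CPM (median 126) in AH47A, against 97.6 to 139 CPM (median 106) after nutlin. The 287 Acaca values were 104 to 124 CPM (median 115) untreated and 47.3 to 69.2 CPM (median 58.2) after nutlin. The 621 Acaca values were 119.5 to 137 CPM (median 127) and 93.2 to 115 CPM (median 109). For Acaca, all 6 nutlin libraries lay below all 6 untreated ones in 287 and 621, and the groups overlapped in AH47A (lower after nutlin in 5 of 6 constructs). The Acaca response was -0.18 ± 0.06 in AH47A (adjusted p = 0.0182), -0.96 ± 0.06 in 287 (adjusted p = 1.09e-13) and -0.25 ± 0.06 in 621 (adjusted p = 0.00131). Fasn builds palmitate from these units. Fasn in AH47A ran from 875 to 1131 CPM (median 1009.6) before nutlin and from 584 to 916 CPM (median 789) after it. In 287, Fasn ran from 807 to 892 CPM (median 852) untreated and from 328 to 428 CPM (median 345) after nutlin. For 621, Fasn values were 876 to 907 CPM (median 897) untreated and 499.7 to 751 CPM (median 576) after nutlin. For Fasn, all 6 nutlin libraries lay below all 6 untreated ones in 287 and 621, and the groups overlapped in AH47A (lower after nutlin in 6 of 6 constructs). The Fasn response was -0.42 ± 0.07 in AH47A (adjusted p = 1.22e-05), -1.24 ± 0.07 in 287 (adjusted p = 1.56e-15) and -0.57 ± 0.07 in 621 (adjusted p = 5.36e-08).

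Acss1 and Acss2 both make acetyl-CoA from acetate, Acss1 in mitochondria and Acss2 in the cytosol and nucleus, and they went in opposite directions. AH47A libraries held 18.6 to 32.7 CPM (median 21.8) of Acss1 untreated and 12.2 to 27 CPM (median 19.9) under nutlin. In line 287, Acss1 held 39.7 to 55.5 CPM (median 52.3) before and 16.6 to 34.3 CPM (median 31.4) after nutlin. In line 621, Acss1 held 47.2 to 66.2 CPM (median 50.7) untreated and 28.5 to 49.4 CPM (median 46.1) after nutlin. For Acss1, all 6 nutlin libraries lay below all 6 untreated ones in 287, and the groups overlapped in AH47A (lower after nutlin in 5 of 6 constructs) and 621 (lower after nutlin in 6 of 6 constructs). The Acss1 response was -0.27 ± 0.14 in AH47A (adjusted p = 0.123), -0.82 ± 0.13 in 287 (adjusted p = 2.56e-06) and -0.37 ± 0.12 in 621 (adjusted p = 0.0154), and the call in 621 was lost without the control (adjusted p = 0.121) or R246Q (0.0545). Acss2 started low, above all in 287. Untreated, Acss2 stood at 11.8 to 18.6 CPM (median 14.1) in AH47A, against 18 to 26.8 CPM (median 21.5) after nutlin. The 287 Acss2 values were 1.98 to 4.52 CPM (median 4.21) untreated and 14.1 to 32.3 CPM (median 20.1) after nutlin. The 621 Acss2 values were 7.77 to 9.38 CPM (median 8.69) and 11.6 to 19.8 CPM (median 15.2). For Acss2, all 6 nutlin libraries lay above all 6 untreated ones in 287 and 621, and the groups overlapped in AH47A (lower after nutlin in 0 of 6 constructs). The Acss2 response was 0.60 ± 0.14 in AH47A (adjusted p = 0.000687), 2.44 ± 0.16 in 287 (adjusted p = 4.42e-14) and 0.83 ± 0.15 in 621 (adjusted p = 2.28e-05).

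Of the 6 genes for elongation and desaturation, 4 fell in each line. Elovl6 extends palmitate to stearate. Elovl6 in AH47A ran from 352 to 399 CPM (median 378) before nutlin and from 137 to 287 CPM (median 241) after it. In 287, Elovl6 ran from 349 to 424 CPM (median 400.3) untreated and from 60.2 to 156 CPM (median 111) after nutlin. For 621, Elovl6 values were 280.4 to 318 CPM (median 293) untreated and 95.3 to 258 CPM (median 182) after nutlin. For Elovl6, all 6 nutlin libraries lay below all 6 untreated ones in AH47A, 287 and 621. The Elovl6 response was -0.75 ± 0.08 in AH47A (adjusted p = 8.55e-09), -1.91 ± 0.08 in 287 (adjusted p = 6.53e-18) and -0.80 ± 0.08 in 621 (adjusted p = 1.68e-09). Elovl5, which extends polyunsaturated fatty acids, fell in AH47A and was not called in 287 or 621. AH47A libraries held 171 to 194 CPM (median 183) of Elovl5 untreated and 126 to 164 CPM (median 153) under nutlin. In line 287, Elovl5 held 118 to 137 CPM (median 119) before and 108 to 121 CPM (median 111) after nutlin. In line 621, Elovl5 held 125 to 148 CPM (median 135) untreated and 121 to 149 CPM (median 139) after nutlin. For Elovl5, all 6 nutlin libraries lay below all 6 untreated ones in AH47A, and the groups overlapped in 287 (lower after nutlin in 4 of 6 constructs) and 621 (lower after nutlin in 3 of 6 constructs). The Elovl5 response was -0.29 ± 0.06 in AH47A (adjusted p = 0.000123), -0.12 ± 0.06 in 287 (adjusted p = 0.0619) and 0.00 ± 0.06 in 621 (adjusted p = 0.993).

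The desaturase paralogs Scd1 and Scd2, which make oleate from stearate, went apart in 287. Untreated, Scd1 stood at 628 to 927 CPM (median 662) in AH47A, against 386 to 808 CPM (median 550.2) after nutlin. The 287 Scd1 values were 179.5 to 237 CPM (median 202) untreated and 57.9 to 81 CPM (median 68.7) after nutlin. The 621 Scd1 values were 593 to 766 CPM (median 738) and 357 to 653 CPM (median 542). For Scd1, all 6 nutlin libraries lay below all 6 untreated ones in 287, and the groups overlapped in AH47A (lower after nutlin in 6 of 6 constructs) and 621 (lower after nutlin in 6 of 6 constructs). The Scd1 response was -0.30 ± 0.11 in AH47A (adjusted p = 0.0312), -1.60 ± 0.12 in 287 (adjusted p = 2.67e-11) and -0.44 ± 0.11 in 621 (adjusted p = 0.00183). Scd2 is far more abundant in AH47A than in 287 before treatment. Scd2 in AH47A ran from 2068 to 2983 CPM (median 2215) before nutlin and from 1894 to 3639 CPM (median 2400.3) after it. In 287, Scd2 ran from 639 to 835 CPM (median 747) untreated and from 1465 to 1787 CPM (median 1609) after nutlin. For 621, Scd2 values were 1344 to 1700.3 CPM (median 1585) untreated and 1559 to 1952 CPM (median 1890.1) after nutlin. For Scd2, all 6 nutlin libraries lay above all 6 untreated ones in 287, and the groups overlapped in AH47A (lower after nutlin in 1 of 6 constructs) and 621 (lower after nutlin in 0 of 6 constructs). The Scd2 response was 0.12 ± 0.11 in AH47A (adjusted p = 0.41), 1.12 ± 0.12 in 287 (adjusted p = 5.59e-09) and 0.22 ± 0.11 in 621 (adjusted p = 0.109), so that it passed the test in 287 and missed it in the other lines. The desaturases of polyunsaturated fatty acids were Fads1, which fell in every line (between -1.17 and -0.33), and Fads2, which stood at -0.30 ± 0.19, adjusted p = 0.215 in AH47A and fell in 287 (-2.12 ± 0.24, adjusted p = 7.26e-08) and 621 (-0.80 ± 0.26, adjusted p = 0.0113). Without the control libraries, Fads2 was not called in 621 (adjusted p = 0.0719).

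Lpin1, a phosphatidate phosphatase and a described p53 target, rose by the most of all members. AH47A libraries held 2.46 to 7.41 CPM (median 5.26) of Lpin1 untreated and 10.2 to 36.7 CPM (median 16.2) under nutlin. In line 287, Lpin1 held 1.34 to 2.75 CPM (median 1.59) before and 23.8 to 115 CPM (median 45.8) after nutlin. In line 621, Lpin1 held 1.61 to 4.32 CPM (median 3.29) untreated and 16.5 to 62.1 CPM (median 25) after nutlin. For Lpin1, all 6 nutlin libraries lay above all 6 untreated ones in AH47A, 287 and 621. The Lpin1 response was 1.84 ± 0.27 in AH47A (adjusted p = 8.41e-06), 4.85 ± 0.30 in 287 (adjusted p = 5.16e-13) and 3.23 ± 0.28 in 621 (adjusted p = 1.62e-09).

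The medians of both arms lay below 0 in every line, and in 621 the sterol median lay lower than the fatty acid median. The median response of the 18 sterol and the 12 fatty acid genes was -0.37 and -0.30 in AH47A, -1.08 and -1.04 in 287 and -0.68 and -0.40 in 621, where the median over all genes tested lay between -0.03 and 0.00. No p is given for these medians. Taken per pair of an untreated and a nutlin library, the sterol median was below the fatty acid median in 4 of 6 pairs in AH47A, 3 of 6 in 287 and 6 of 6 in 621. The mean difference over the pairs was -0.06 ± 0.08 (SD, n = 6) in AH47A, -0.01 ± 0.12 in 287 and -0.31 ± 0.08 in 621. It was thus larger than the spread between pairs in 621 and smaller in AH47A and 287. In every line the control pair had the lowest value of both arms, with sterol medians of -0.67, -1.20 and -1.10 and fatty acid medians of -0.62, -1.34 and -0.72. The fatty acid arm held the members that rose most, Lpin1 and Acss2, so with means in place of medians the sterol arm lay lower by -0.25, -0.82 and -0.67.

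**Figure D4:**
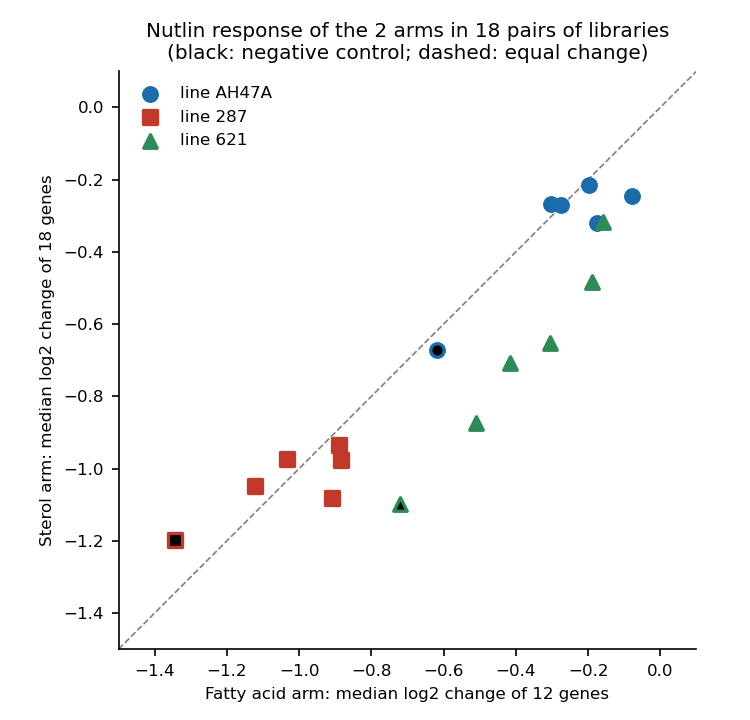
Median log2 nutlin change of the fatty acid arm (x axis) and the sterol arm (y axis) in each of 18 pairs of libraries, by line, with the control pairs marked in black and a dashed line of equal change. All 6 pairs of 621 lie below the dashed line, and the control pair is the lowest of each line on both axes.

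The lines differed in response for 31 of 36 members in an F test over the 3 lines, where 60.3% of all genes did. The 5 that were not called were Pmvk, Tm7sf2, Msmo1, Insig2 and Scap. The lowest response was in 287 for 23 members, in 621 for 8 and in AH47A for 5, an order that was not counted over all genes. Against AH47A, the response of 287 was lower for 24 members and higher for 4 (46.9% of all genes were called, 22.6% lower), among them Hsd17b7 (-1.81 ± 0.17, adjusted p = 1.6e-09) and Fdps (-1.80 ± 0.14, adjusted p = 7.47e-11). The response of 621 was lower than that of AH47A in 11 of 18 sterol genes and in 0 of 12 fatty acid genes, of which 2 were higher, where 31.6% of all genes were called (15.8% lower). Among these sterol genes were Fdps (-0.73 ± 0.13, adjusted p = 0.000131) and Hmgcs1 (-0.66 ± 0.15, adjusted p = 0.00114), while the response of Fasn differed by -0.15 ± 0.10, adjusted p = 0.244 and Elovl6 by -0.05 ± 0.11, adjusted p = 0.772. Against 287, the log2 response of 621 was higher for 17 members and lower for 5 (41.4% of all genes were called, 19.9% higher and 21.5% lower).

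Among constructs, the negative control had the lowest median response of both arms. With the control, 31 of 36 members were called over the 3 lines (53.7% of all genes). With the mutants the counts were 22 for G280 (37.2%), 31 for I192S (41.6%), 28 for R246Q (39.6%), 27 for R270H (45.3%) and 24 for V170M (29.2%). The sterol median was -1.09 with the control, and -0.54, -0.82, -0.74, -0.63 and -0.54 with the mutants in the order just given. The fatty acid median was -0.96 with the control and -0.44, -0.60, -0.51, -0.49 and -0.46 with the mutants. Of the 6 constructs the control had the lowest response in 24 of 36 members, 13 of 18 in the sterol arm and 9 of 12 in the fatty acid arm. This order was not counted over all genes, so it is not read as a trait of the members. Leaving out 1 line kept the control at 27 to 29 members and lowered the counts of the mutants without 287, to 5 for G280, 19 for I192S, 17 for R246Q, 17 for R270H and 8 for V170M. The counts over all genes in these fits are not given here, so the drop is not read as a trait of the members.

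Under nutlin most of the synthesis genes stood higher in the mutants than in the control. Averaged over the 5 mutants, 23 of 36 members were higher and 3 lower, where 16% of all genes were called (7.22% higher and 8.76% lower). In the sterol arm 13 of 18 were higher and 0 lower, and in the fatty acid arm 8 of 12 were higher and 2 lower. For 14 members all 15 mutant libraries lay above the control library of their own line, as for 4.12% of all genes. Untreated, this held for 0 members. The untreated share over all genes is not given here, so nothing is read from that 0 about the members. The counts of called members depend on the model. With 1 additive term per line 3 members were called, and with no line term 0. Without AH47A 14 were called, without 287 21 and without 621 16. Counts over all genes are not given here for the fits that leave out a line, and for the line terms they follow in the last section. The changes are thus not read as a trait of the members. The p53 targets Cdkn1a (-0.87) and Mdm2 (-0.74) were lower in the mutants under nutlin as well. The control libraries under nutlin held 5404113 to 9312256 counts and the mutant libraries 5941164 to 9689091, and the part of depth in the result was not tested.

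Elovl6 had the largest positive difference of the fatty acid genes. Under nutlin, Elovl6 stood at 137 CPM in the AH47A control and 224 to 287 CPM (median 245) in its 5 mutant libraries. The Elovl6 values in 287 were 60.2 CPM in the control and 94.5 to 156 CPM (median 115) in the mutants. For 621, the Elovl6 control stood at 95.3 CPM and the mutants at 137 to 258 CPM (median 185). All 15 mutant values were above the control of their line, with no overlap in any line. The Elovl6 difference under nutlin was 0.94 ± 0.09, adjusted p = 4.38e-07. Under nutlin, Sqle stood at 87.4 CPM in the AH47A control and 149 to 163 CPM (median 157) in its 5 mutant libraries. The Sqle values in 287 were 23.5 CPM in the control and 29.7 to 39.8 CPM (median 31.8) in the mutants. For 621, the Sqle control stood at 57.3 CPM and the mutants at 77.4 to 104 CPM (median 90.4). Again no mutant Sqle value reached down to its control. The Sqle difference was 0.67 ± 0.08, adjusted p = 5.5e-06. Under nutlin, Hmgcs1 stood at 169.6 CPM in the AH47A control and 205 to 322 CPM (median 261) in its 5 mutant libraries. The Hmgcs1 values in 287 were 57.4 CPM in the control and 75.4 to 98.3 CPM (median 83.5) in the mutants. For 621, the Hmgcs1 control stood at 59.9 CPM and the mutants at 83 to 130 CPM (median 106). The Hmgcs1 mutant values were likewise all above the control. Its difference was 0.69 ± 0.12, adjusted p = 0.000446.

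Other members with a call were Hsd17b7 (0.69 ± 0.15, adjusted p = 0.00197), Msmo1 (0.67 ± 0.12, adjusted p = 0.000316), Lss (0.65 ± 0.12, adjusted p = 0.000352), Insig1 (0.51 ± 0.09, adjusted p = 0.000228) and Acly (0.39 ± 0.07, adjusted p = 0.000287). Lower in the mutants were Lpin1 (-1.33 ± 0.21, adjusted p = 0.000189), Acss2 (-0.51 ± 0.14, adjusted p = 0.0128) and Scap (-0.30 ± 0.08, adjusted p = 0.011), and Lpin1 and Scap were below the control in all 15 libraries (5.22% of all genes were). Of the 26 calls 11 held whichever line was left out, those of Hmgcs1, Idi1, Sqle, Lss, Msmo1, Sc5d, Insig1, Acly, Acss1, Elovl6 and Lpin1. With 1 additive term per line, Msmo1, Acss1 and Elovl6 alone of the 26 kept their calls, and the other 8 of these 11 lost theirs. With no line term none of the 26 was called. How many of the calls over all genes held in these fits is not given here. The losses are thus not read as a trait of the members. Lost without AH47A were the calls of Acat2 (adjusted p = 0.13), Fdps (0.0842), Hsd17b7 (0.0534), Fads1 (0.051), Fasn (0.134), Mvk (0.469), Scd1 (0.105), Stard4 (0.139) and Dhcr7 (0.0685). Without 621, Fasn (0.0937), Mvk (0.213), Scd1 (0.263), Dhcr7 (0.0936) and Scap (0.0965) were lost, and without 287 Stard4 (0.125). Acaca was lost without 287 (0.0899) or 621 (0.109), as was Acss2 (0.196 and 0.0714). Ebp (0.0796 to 0.303), Nsdhl (0.0561 to 0.2) and Fads2 (0.0556 to 0.236) were lost without any 1 of the lines.

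**Figure D5:**
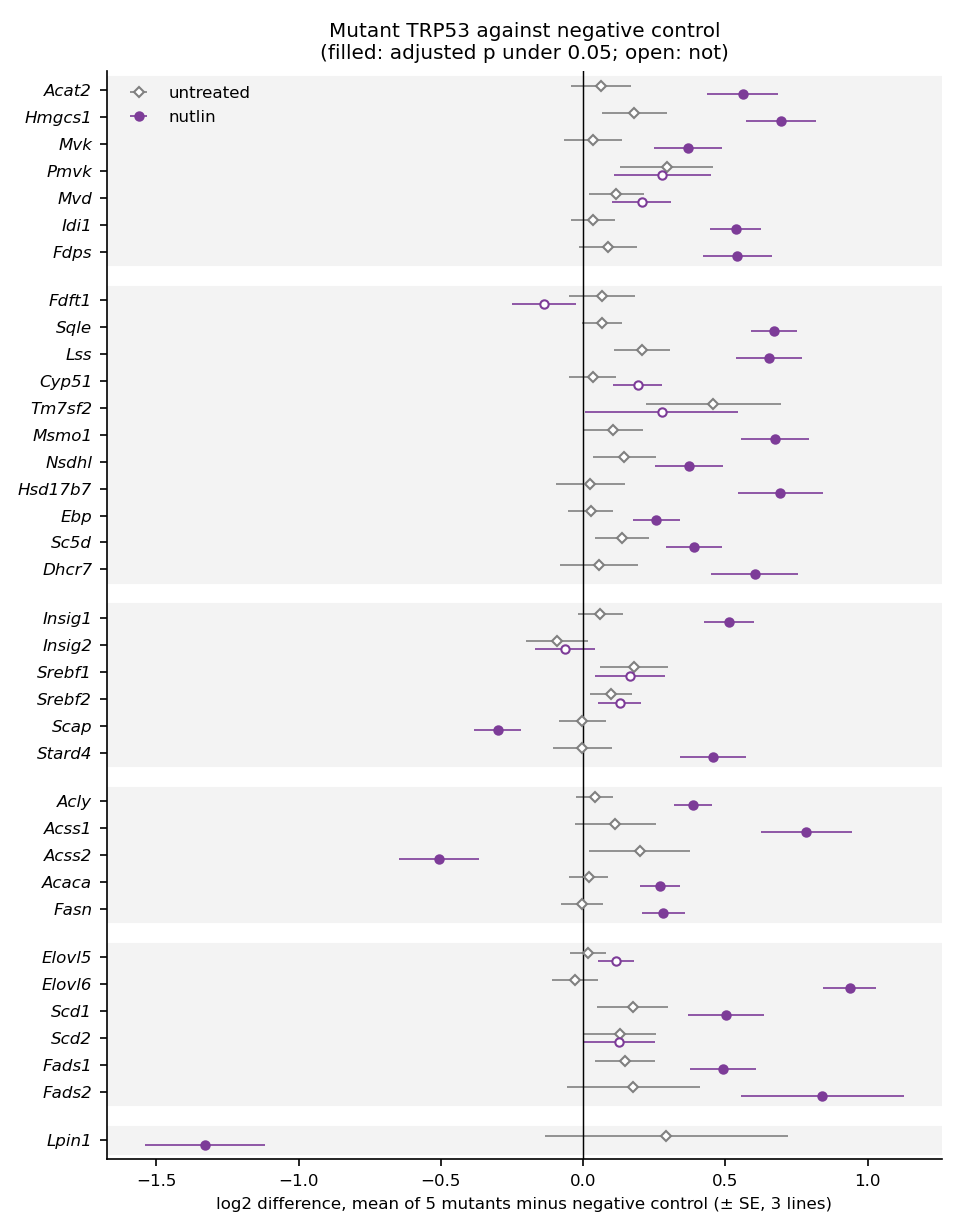
Log2 difference between the mean of 5 mutants and the negative control (with SE, 3 lines) of each member, untreated (grey diamonds) and under nutlin (purple circles), filled where the adjusted p is under 0.05. No untreated point is filled, and under nutlin most filled points lie right of 0, with those of Lpin1, Acss2 and Scap left of it.

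Before treatment 0 of 36 members differed between the mean of 5 mutants and the control by edgeR, where 0.0162% of all genes were called. An unadjusted p under 0.05 was found for 1 member and 275 of all genes. DESeq2 called 0 members and 1 of all genes. The response itself, nutlin minus untreated, was tested against that of the control for each mutant. With G280, 2 members had a smaller fall, Sqle (0.71 ± 0.14, adjusted p = 0.0223) and Elovl6 (1.13 ± 0.15, adjusted p = 0.000785), where 0.179% of all genes were called. With R246Q, Elovl6 was called (0.92 ± 0.15, adjusted p = 0.0284; 0.0243% of all genes). With V170M, 4 were called (3.64% of all genes), Idi1 (0.64 ± 0.15, adjusted p = 0.0156), Sqle (0.70 ± 0.14, adjusted p = 0.00577), Acly (0.44 ± 0.12, adjusted p = 0.0346) and Elovl6 (1.14 ± 0.15, adjusted p = 0.000353). With I192S and R270H 0 members passed in edgeR (0.00812% and 0% of all genes). An unadjusted p under 0.05 was found for 10 and 12 members, beside 963 and 1325 of all genes. DESeq2 called 1 and 2 members, beside 15 and 86 of all genes. Leaving out 1 line ended the G280 call of Elovl6 without 621 (adjusted p = 0.317), the G280 call of Sqle without any 1 of the lines (0.0665 to 0.765) and the R246Q call of Elovl6 likewise (0.172 to 0.241). Of the V170M calls, Acly was lost without any 1 line (0.126 to 0.212), and Idi1 (0.18 and 0.244) and Sqle (0.172 and 0.0755) without 287 or 621. With 1 additive term per line, or with no line term, 0 members were called for G280, R246Q or V170M. The V170M call of Elovl6, which held whichever line was left out, was thus lost as well. Counts over all genes in these fits are not given here, so the losses are not read as a trait of the members.

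In the mean of 5 mutants 7 members had a smaller fall than in the control (3.38% of all genes were called). They were Idi1 (0.50 ± 0.12, adjusted p = 0.0144), Sqle (0.60 ± 0.11, adjusted p = 0.00376), Msmo1 (0.57 ± 0.16, adjusted p = 0.0413), Hsd17b7 (0.67 ± 0.19, adjusted p = 0.0486), Insig1 (0.45 ± 0.12, adjusted p = 0.0275), Acly (0.35 ± 0.09, adjusted p = 0.0339) and Elovl6 (0.97 ± 0.12, adjusted p = 0.000128). Of these, Elovl6 alone was called whichever line was left out, and with an additive line term 0 of the 7 were called. Counts over all genes in these fits are likewise not given here. The 5 mutants were not found to differ from one another: an F test in edgeR called 0 of 36 members and 0 of all genes (0%), 0 members and 270 genes had an unadjusted p under 0.05, and DESeq2 called 0.

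Other genes of lipid metabolism were counted from lists by function, beside all genes tested, of which 22.2%, 35.7% and 28.6% fell and 21.4%, 36.2% and 26.4% rose in AH47A, 287 and 621. Several of the counts below lie near these shares, and nothing is read from them about the lists. Of 11 further genes of isoprenoid and sterol synthesis, 3 fell in AH47A, 9 in 287 and 4 in 621, and 3, 1 and 2 rose. Ggps1, which makes geranylgeranyl diphosphate, rose in all 3 (0.26, 0.46 and 0.37). Of 16 genes of sterol uptake, storage and export, 4, 4 and 7 fell and 3, 5 and 4 rose. Apoe, which encodes a lipoprotein component, and Tmem97 fell in all 3 lines. Soat2, which esterifies cholesterol, summed over 6 libraries went from 0 to 31 counts in AH47A, from 1 to 140 in 287 and from 0 to 19 in 621.

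Read against the same shares of all genes, of 12 genes that process or turn over SREBP 3, 5 and 3 fell and 4, 5 and 4 rose. Rnf145 fell in each line (-0.70, -0.89 and -0.34), while the vesicle coat gene Sec23a and the SREBP protease gene Mbtps2 rose. Of 28 further fatty acid and glycerolipid genes, 7, 13 and 14 fell and 4 rose in each line. Acsl3 (-0.40, -1.42 and -0.56) and Acsl1, which activate fatty acids, fell in all 3 lines, and the elongation gene Hacd2 and the desaturase paralog Scd3 rose. Of 22 genes of fatty acid oxidation, 8, 11 and 7 rose and 1, 4 and 5 fell, beside 21.4%, 36.2% and 26.4% of all genes higher and 22.2%, 35.7% and 28.6% lower. Cpt1a, which admits fatty acids to mitochondria (0.33, 1.37 and 0.33), Acad11 and Etfdh rose in all 3 lines, and Acadm, a dehydrogenase of medium chains, fell. The median response of these 22 was 0.21 in each line, beside -0.01, 0.00 and -0.03 over all genes.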

How the data were processed

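RNA sequencing counts of 36 libraries were used as deposited: whole-number read counts per gene, made by the authors with bcl2fastq 1.8.4 and featureCounts on the builds mm10 and GRCm38, per the submitters' processing notes. The aligner, the annotation and whether counting used strand were not given in the sources used here, so reads of overlapping antisense genes cannot be told apart. Identifiers without a symbol held 0.303% of counts and stayed in the fit.

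One model was fitted over all 36 libraries with edgeR 4.0.16 (R 4.3.3): a term for each line in each treatment and for each construct in each treatment, leaving 20 residual degrees of freedom, with TMM scaling, a filter at a minimum count of 10 (12321 genes tested, 99.94% of counts) and Benjamini-Hochberg adjustment over all genes tested. CPM and RPKM were computed from the TMM-scaled library sizes. The biological coefficient of variation was 9.68%. The same line links libraries across groups: in 198 pairs of libraries of the same line, the correlation of deviations from group means was 0.629 to 0.929. DESeq2 1.42.0, other scaling, filters, line terms and left-out lines or constructs were tried as alternatives.

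The members and lists were chosen with earlier results of these data known. Values per line were given for up to 4 members of each role by highest mean CPM, members called in opposite directions or against their role, and members with a called response difference. From each other list at most 4 genes called the same way in all 3 lines were named, and some of these are not reported here.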

Additional observations from a re-analysis of the deposited data

Results flagged for a closer look

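The response to nutlin differed between the 3 lines for 31 of the 36 members by the F test of edgeR's quasi-likelihood fit, and each is given here with the largest difference between 2 lines on the log2 scale. In the sterol arm these differences were Acat2 1.02, Hmgcs1 0.766, Mvk 0.93, Mvd 0.531, Idi1 1.33, Fdps 1.8, Fdft1 0.632, Sqle 1.4, Lss 1.26, Cyp51 0.292, Nsdhl 0.486, Hsd17b7 1.81, Ebp 0.685, Sc5d 0.383 and Dhcr7 0.816, with adjusted p from 1.32e-11 to 0.0311. Among the control genes they were Insig1 0.597, Srebf1 0.605, Srebf2 0.402 and Stard4 1.03 (adjusted p 1.78e-06 to 0.00457). In the fatty acid arm they were Acly 0.787, Acss1 0.551, Acss2 1.84, Acaca 0.774, Fasn 0.825, Elovl5 0.294, Elovl6 1.16, Scd1 1.29, Scd2 0.994, Fads1 0.844, Fads2 1.82 and Lpin1 3.01 (adjusted p 7.42e-10 to 0.0257). Lpin1 had the widest difference among the members, with its highest response in 287 and its lowest in AH47A. The F test was called for 60.3% of all genes.

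The response also differed between the mean of 5 mutants and the control for 7 members, where 3.38% of all genes were called. The differences on the log2 scale were Idi1 0.503 (adjusted p = 0.0144), Sqle 0.605 (adjusted p = 0.00376), Msmo1 0.569 (adjusted p = 0.0413), Hsd17b7 0.668 (adjusted p = 0.0486), Insig1 0.453 (adjusted p = 0.0275), Acly 0.346 (adjusted p = 0.0339) and Elovl6 0.966 (adjusted p = 0.000128), with a smaller fall in the mutants in each case.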

How the results depend on the processing

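Of 225 repeats of the comparisons and arm differences under an alternative, 180 kept their count within 1.5 times or their value within the spread. The others were 36 weaker, 6 stronger and 3 moved. Counts and arm differences had no label for a reversal. For single members 1623 of 1876 repeats kept their call, 231 were weaker and 22 stronger. The counts within lines and between untreated lines stayed within 1.5 times under each alternative run. Those that average over lines depended on the line term. Without the replicate block (12 groups, no line term) the response called 3 members with the control, 0 with V170M and 1 with each other mutant, and the difference under nutlin 0 members and 0 genes. With the replicate block as an additive line term, the response called 6 members with G280 and 7 with V170M, and the difference under nutlin 3 members and 123 genes in place of 1969. Both these fits called 0 members in the response differences of G280, R246Q, V170M and the mean of 5 mutants. Counts over all genes for the responses and response differences in both fits are not given here. Nothing is thus read from these counts about the members. DESeq2 called more members in the response differences: 9 for G280, 1 for I192S, 2 for R246Q, 2 for R270H, 7 for V170M and 11 for the mean of 5 mutants. Of all genes it called 15 for I192S and 86 for R270H. Its counts over all genes for the other response differences are not given here, so nothing is read from these about the members. Means in place of medians moved the arm difference to -0.25 in AH47A, -0.82 in 287 and -0.67 in 621. Without Lpin1 and Acss1 the difference of medians was 0.06 in 287, against -0.04 with all members of the arms, so its sign changed. That alternative left out a member that rose (Lpin1) and one that fell in 287 and 621 (Acss1), and kept Acss2. Its values in AH47A and 621 are not given here. Apart from the arm means, whose construction gives Lpin1 and Acss2 more weight, the cause was not tested.

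Leaving out 1 construct or line gave these ranges of members called. No counts over all genes are given beside them, so nothing is read from the ranges about the members in particular. The line responses ranged from 17 to 27 in AH47A, 32 to 33 in 287 and 28 to 32 in 621, and the F test over lines from 29 to 32. The construct responses ranged from 27 to 29 (control), 5 to 23 (G280), 19 to 31 (I192S), 17 to 29 (R246Q), 17 to 30 (R270H) and 8 to 24 (V170M). The response differences ranged from 0 to 1 for G280, 0 to 0 for R246Q, 1 to 3 for V170M and 1 to 2 for the mean of 5 mutants, and the difference under nutlin from 14 (without AH47A) through 16 (without 621) to 21 (without 287). Untreated lines ranged from 29 to 32 for 287 against AH47A, 24 to 28 for 621 against AH47A and 19 to 23 for 621 against 287. The arm difference ranged from -0.098 to -0.007 in AH47A, -0.082 to 0.002 in 287 and -0.324 to -0.224 in 621.

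With 1 library per line, construct and treatment, a value of a single culture has no replicate of its own, and effects of a mutant within 1 line were not tested.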
